A study of Mus musculus with 32 samples.

Results

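The 40 genes described here act in cell division, from entry into mitosis to the separation of the daughter cells. They were taken as a list of gene symbols by function, and the list was drawn up with earlier results of these arrays known. Of the 40 listed genes 39 were measured, among 19938 genes that had a probe set with a single gene symbol. Ccnb1, which encodes cyclin B1, had no such probe set and has no value here. For a gene with several probe sets the one brightest on average across the 32 arrays was used. Of the 39 genes this concerned Cks2, with 3 such probe sets, and Top2a, with 2. Values of their other probe sets are not given here.

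Entry into mitosis is driven by Cdk1 with its cyclins, together with kinases of the Polo and Aurora families. Chromosomes are then compacted by condensin and topoisomerase II and are held by spindle microtubules at their kinetochores. The spindle checkpoint, formed by Bub and Mad proteins and the kinase Ttk, blocks Cdc20 and the anaphase-promoting complex (APC/C) until every kinetochore is attached. Transcripts of these genes accumulate in cycling cells and are scarce in tissues made mostly of cells that have left the cycle, such as the adult brain, so they are widely used to read proliferation in lymphoma.

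Affymetrix arrays measured total RNA of the BALB/c mouse B lymphoma line BAL17 in culture (6 arrays), of the derived line BAL17VII in culture (6 arrays) and of whole brains of wild-type BALB/c mice. The brains carried BAL17 lymphoma at day 21 (5 brains) or day 28 (5 brains) after 500000 cells were implanted, or BAL17VII lymphoma at day 21 (5 brains). The controls were 5 brains of mice injected with phosphate-buffered saline (PBS), taken at day 28. No treatment and no engineered allele is given in the labels for any group, and the age of the mice is not given in the sources used here. Each implanted group rests on a single line, and the labels do not say whether cultures were grown separately for each array, so p-values between the lines measure only how far these arrays spread. Control brains exist for day 28 alone, so day and implanted cells cannot be told apart in the day 21 comparisons with PBS. The 3 comparisons with PBS share the control brains, and the comparisons of day 21 BAL17 brains with BAL17VII brains and with day 28 share those BAL17 brains.

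Values below are log2 intensities or log2 differences between groups, with the standard deviation (SD) for levels and limma's standard error (SE) for differences. A gene was called higher or lower at a Benjamini-Hochberg adjusted p under 0.05 over all 19938 genes. Pairs of arrays of a group correlated at 0.9739 or more over all 35556 probe sets. Markers of the labelled cell types were high on average. B lineage markers had means of 8.77 in BAL17 and 8.87 in BAL17VII cells over 9 genes. In each line 2 of the 9 had a mean below the array median. Neuron markers were high in all 4 brain groups, with means between 10.68 and 11.11 over 6 genes. Replicate 1 of the BAL17VII brains stood apart from the other brains of its group. Its mean over the 39 mitosis genes was 5.95, against 7.03 to 7.58 in the other BAL17VII brains and 5.88 to 5.91 in the PBS brains, and its B lineage mean was 6.06, against 6.97 to 7.58 and 5.90 to 6.24. Counts of called genes and median differences of the 39 genes that rest on this brain are given with and without it. So are called differences between the lines that it moves by over 1.5 times. Counts of genes without overlap and shares of the culture level are given only with it.

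Since the genes are known to be transcribed together, their start sites were searched for 2 short motifs. The letters TTTGAA are the core of the cell cycle genes homology region, at which the DREAM and MuvB complexes act in cycling genes, and CCAAT is the box bound by NF-Y. RefSeq windows from 250 bases before to 50 bases after the start site (GRCm38.p6) were found for 34 of the 40 genes. TTTGAA, read on either strand, occurred in 24 of the 34 (70.6%), against 20.2% of 27025 genes with such a window. CCAAT on either strand occurred in 70.6% of the 34 against 41.1% of all, and both motifs in 58.8% against 7.97%. Among other mitosis genes TTTGAA was found in 53.2% of 77 and among DNA replication genes in 16.7% of 18, while CCAAT was found in 68.8% and 72.2%. The 34 genes held 32 distinct TTTGAA sites. Their first bases, counted from the nearest start site of the gene, had a median position of -16 and ran from -179 to 41. Matches may share bases, as 2 CCAAT matches on opposite strands do at Ube2c, and a match is a description of sequence and not evidence of a bound factor.

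The 6 windows printed here run from 150 bases before to 50 bases after the start site, 5′ to 3′ on the strand of the gene, with both motifs in capitals whether they lie on that strand or on its complement. They were chosen to show the gene with the largest difference from PBS brains (Top2a), a checkpoint gene (Bub1b), the central kinases (Cdk1, Plk1), the usual proliferation marker (Mki67) and a checkpoint gene whose window holds neither motif (Mad2l1). Top2a is read from chr11:99024140-99024339 on the minus strand, Bub1b from chr2:118598061-118598260 on the plus strand and Cdk1 from chr10:69352863-69353062 on the minus strand. Plk1 is read from chr7:122159285-122159484 on the plus strand, Mki67 from chr7:135716330-135716529 on the minus strand and Mad2l1 from chr6:66535071-66535270 on the plus strand.
Top2a: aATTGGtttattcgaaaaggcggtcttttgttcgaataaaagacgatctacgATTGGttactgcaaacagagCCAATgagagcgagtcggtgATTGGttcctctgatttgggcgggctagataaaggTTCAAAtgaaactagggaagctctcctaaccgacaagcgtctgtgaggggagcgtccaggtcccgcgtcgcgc
Bub1b: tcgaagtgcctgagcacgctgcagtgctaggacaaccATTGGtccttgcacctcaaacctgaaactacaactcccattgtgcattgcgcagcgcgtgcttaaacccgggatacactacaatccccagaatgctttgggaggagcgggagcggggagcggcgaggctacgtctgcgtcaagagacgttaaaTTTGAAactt
Cdk1: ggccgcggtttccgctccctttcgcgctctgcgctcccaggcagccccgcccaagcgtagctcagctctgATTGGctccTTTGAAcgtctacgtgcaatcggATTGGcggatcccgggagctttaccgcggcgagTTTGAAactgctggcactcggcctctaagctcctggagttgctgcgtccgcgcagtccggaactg
Plk1: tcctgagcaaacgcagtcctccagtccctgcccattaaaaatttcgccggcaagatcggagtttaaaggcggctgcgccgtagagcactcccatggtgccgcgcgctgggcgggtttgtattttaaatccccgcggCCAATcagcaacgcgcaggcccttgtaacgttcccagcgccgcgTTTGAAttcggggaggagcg
Mki67: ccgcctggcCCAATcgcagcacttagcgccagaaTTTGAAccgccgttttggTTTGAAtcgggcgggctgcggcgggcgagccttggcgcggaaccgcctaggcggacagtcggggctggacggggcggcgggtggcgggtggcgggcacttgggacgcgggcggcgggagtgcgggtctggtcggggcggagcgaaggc
Mad2l1: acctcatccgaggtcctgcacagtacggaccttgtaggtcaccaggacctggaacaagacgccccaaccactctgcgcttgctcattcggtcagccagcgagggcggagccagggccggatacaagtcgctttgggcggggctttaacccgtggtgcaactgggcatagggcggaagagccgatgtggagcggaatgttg

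In culture all 39 genes lay above the array median in both lines, and the lines differed little. The mean over the genes was 9.80 ± 0.06 (SD, n = 6) in BAL17 and 9.68 ± 0.07 (n = 6) in BAL17VII. In BAL17VII 5 genes were higher and 14 lower, where 8.48% of all genes were higher and 6.93% lower. The median difference was -0.13 over the 39 genes and -0.01 over all genes, and no gene reached a doubling or halving. With all 32 arrays in the fit 6 of the 39 were called, 2 higher and 4 lower. The share of all genes called in that fit is not given here, so the 6 cannot be set against it.

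The genes lower in BAL17VII cells were 4 of 7 chromosome structure genes, 3 of 5 checkpoint genes, 3 of 8 entry genes, 2 of 5 kinetochore genes, 1 of 2 passenger genes and 1 of 5 spindle genes. Smc2, the ATPase subunit shared by both condensins, had the largest difference (-0.58 ± 0.06, adjusted p = 1.36e-05). It ran from 9.97 to 10.22 (median 10.13) over the BAL17 arrays and from 9.45 to 9.68 (median 9.55) over the BAL17VII arrays. The groups did not overlap. Nuf2 (-0.55 ± 0.07) and Ndc80 (-0.54 ± 0.08), partners in the microtubule-binding complex of the outer kinetochore, followed. Ndc80 ran from 9.87 to 10.09 (median 9.97) in BAL17 and from 9.22 to 9.61 (median 9.45) in BAL17VII, again without overlap. Birc5 (survivin, -0.45 ± 0.08), the checkpoint kinase gene Bub1 (-0.42 ± 0.07) and Top2a (-0.39 ± 0.06) also separated the lines. Bub1 ran from 10.51 to 10.67 (median 10.54) against 9.94 to 10.28 (median 10.16). The other genes called lower were Melk, Kif11, Cks1b, Smc4, Ccna2, Ncaph, Knl1 and Bub1b, with differences from -0.35 to -0.21. Of the 39 genes 11 were lower without overlap between the lines, where 4.57% of all genes were.

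The 5 genes higher in BAL17VII cells, where 8.48% of all genes were higher, were spread over several roles. They were 1 of 8 entry genes, 2 of 5 kinetochore and centromere genes and 2 of 5 central spindle and cytokinesis genes. In the same roles 3 entry genes and 2 kinetochore genes were lower. Aurka, the kinase of spindle poles, ran from 8.89 to 9.47 (median 9.33) in BAL17VII and from 8.51 to 9.04 (median 8.88) in BAL17, which overlap (0.40 ± 0.11, adjusted p = 0.0222). Kif20a, a motor of the central spindle, differed by 0.37 ± 0.10. Cenpa, the histone variant of centromeres, differed by 0.29 ± 0.08, the central spindle motor gene Kif23 by 0.23 ± 0.07 and the kinetochore motor gene Cenpe by 0.21 ± 0.07. Of these 5, Kif23 and Cenpe had no overlap between the lines, 2 of the 39 genes, where 6.15% of all genes were higher without overlap. The remaining 20 genes were not called, among them Cdk1 (-0.24 ± 0.09, adjusted p = 0.0847), Mki67 (-0.13 ± 0.08, adjusted p = 0.392) and Plk1 (-0.01 ± 0.08).

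The culture levels of the other fixed genes ran close together in both lines. Cdk1 ran from 8.41 to 8.72 (median 8.61) in BAL17 and from 8.22 to 8.71 (median 8.31) in BAL17VII, Plk1 from 9.0 to 9.28 (median 9.16) in BAL17 and from 9.02 to 9.33 (median 9.12) in BAL17VII and Mki67 from 11.01 to 11.34 (median 11.16) in BAL17 and from 10.86 to 11.29 (median 10.98) in BAL17VII. The lines overlapped in all 3. Cks1b ran from 10.52 to 10.79 (median 10.74) in BAL17 and from 10.27 to 10.48 (median 10.36) in BAL17VII, Bub1b from 10.68 to 10.78 (median 10.70) in BAL17 and from 10.33 to 10.66 (median 10.52) in BAL17VII and Knl1 from 10.41 to 10.50 (median 10.46) in BAL17 and from 10.04 to 10.31 (median 10.25) in BAL17VII. These were without overlap, with BAL17VII lower. Birc5 ran from 9.73 to 9.97 (median 9.87) in BAL17 and from 9.22 to 9.60 (median 9.37) in BAL17VII, Top2a from 11.46 to 11.68 (median 11.47) in BAL17 and from 11.07 to 11.25 (median 11.12) in BAL17VII and Kif11 from 10.52 to 10.68 (median 10.59) in BAL17 and from 10.11 to 10.38 (median 10.25) in BAL17VII. The lines were separate here too, again with BAL17VII lower. Cenpe, in contrast, ran from 9.31 to 9.57 (median 9.46) in BAL17 and from 9.58 to 9.79 (median 9.66) in BAL17VII, higher in BAL17VII. Overlapping ranges were seen for Mad2l1, from 10.99 to 11.22 (median 11.15) in BAL17 and from 10.69 to 11.06 (median 10.92) in BAL17VII, for Aurkb, from 10.17 to 10.48 (median 10.35) in BAL17 and from 9.76 to 10.26 (median 10.13) in BAL17VII, and for Ncapg, from 10.08 to 10.32 (median 10.14) in BAL17 and from 9.79 to 10.17 (median 10.03) in BAL17VII. Of the remaining fixed genes, Cks2 ran from 9.19 to 9.45 (median 9.24) in BAL17 and from 9.03 to 9.38 (median 9.16) in BAL17VII, Kif2c from 9.16 to 9.49 (median 9.34) in BAL17 and from 9.14 to 9.68 (median 9.39) in BAL17VII and Prc1 from 9.39 to 9.62 (median 9.50) in BAL17 and from 9.27 to 9.47 (median 9.34) in BAL17VII. These ranges overlapped as well. So did those of the APC/C genes, with Cdc20 from 8.80 to 9.28 (median 9.09) in BAL17 and from 8.71 to 9.34 (median 9.05) in BAL17VII and Ube2c from 9.70 to 9.87 (median 9.81) in BAL17 and from 9.68 to 10.13 (median 9.92) in BAL17VII, and that of Anln, from 9.22 to 9.52 (median 9.34) in BAL17 and from 9.19 to 9.34 (median 9.25) in BAL17VII.

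Genes that act in S phase were set beside them. All 22 measured replication genes were lower in BAL17VII cells, with a median of -0.75, from Mcm4 (-1.26 ± 0.07) to Gins2 (-0.35 ± 0.08). Of 90 further mitosis genes outside the list of 40, 35 were lower and 2 higher, with a median of -0.21. The largest differences among these were those of the condensin gene Ncapg2 (-0.76 ± 0.09) and the kinetochore genes Cenpi (-0.74 ± 0.08) and Kntc1 (-0.69 ± 0.08), and the 2 higher genes were Cdkn3 (0.66 ± 0.11) and Cdc25c (0.31 ± 0.08). The lines also differed in other markers: 3 of 9 B lineage genes were higher and 1 lower in BAL17VII cells. Higher too were 3 of 6 macrophage genes (Ccr2, Adgre1 and Cybb, the last at 2.95 ± 0.08). Of 6 T cell genes 1 was higher (Cd2 at 2.02 ± 0.07). In brains Cybb and Cd2 therefore do not mark host cells alone. Whether these marker differences go with the mitosis genes was not tested.

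**Figure D1:**
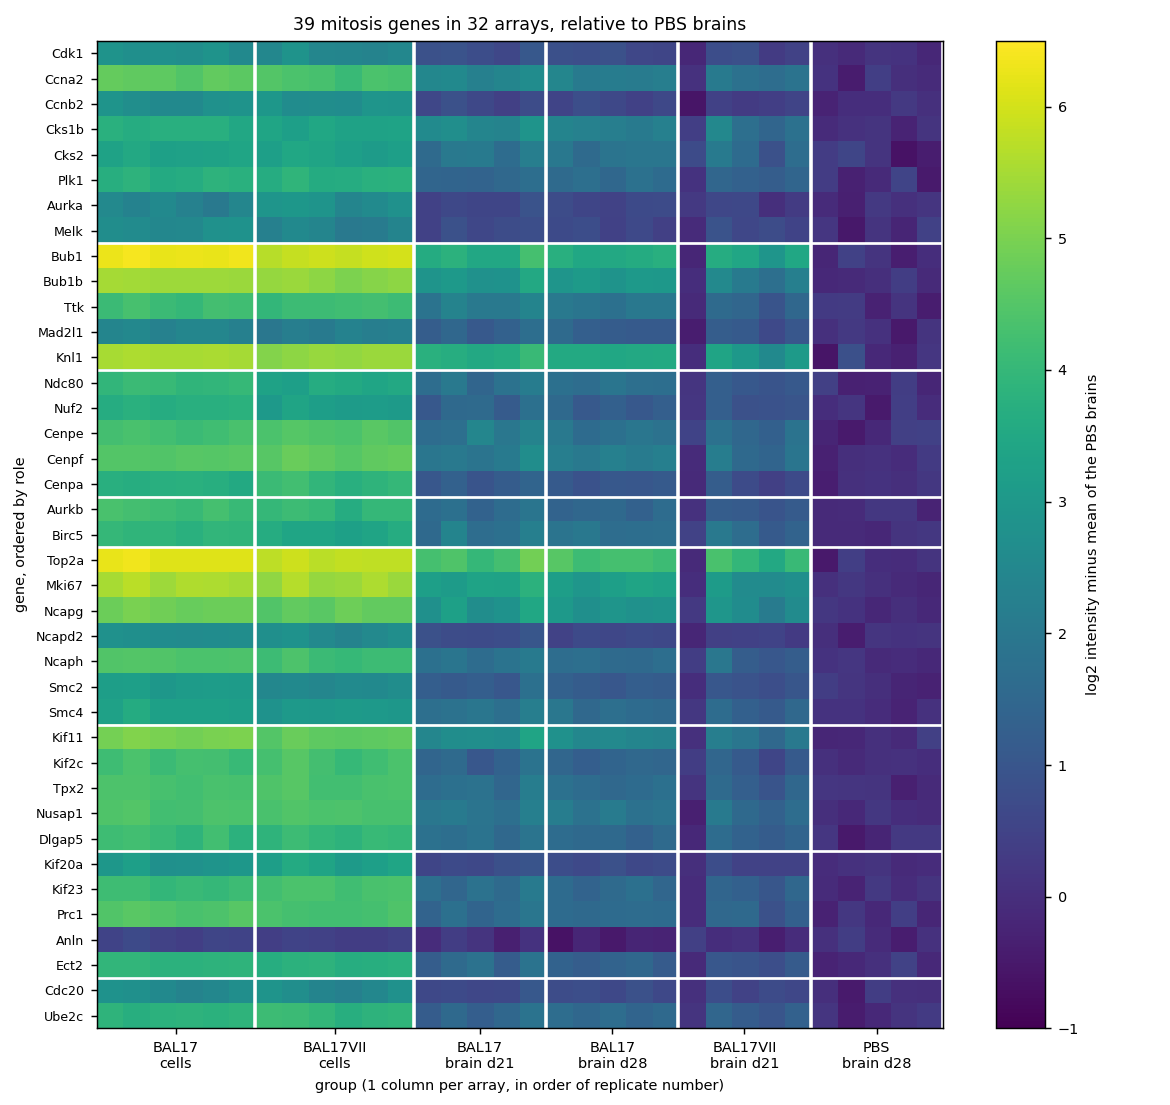
Log2 intensity of each of the 39 mitosis genes (rows, ordered by role, with white lines between roles) on each of the 32 arrays (columns, grouped), minus the gene's mean over the 5 PBS brains. Cultured cells are highest, BAL17 brains lie between them and PBS, the first column of the BAL17VII brains looks like PBS, and the Anln row barely changes.

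At day 21 BAL17 brains had more mitosis RNA than PBS brains in 38 of the 39 genes, where 11.0% of all genes were higher. The median difference was 1.76 over the 39 genes and -0.00 over all genes. In all 38 genes every BAL17 brain lay above every PBS brain, where 7.01% of all genes did so. The mean over the genes was 7.73 ± 0.19 (n = 5) against 5.90 ± 0.02 (n = 5). In whole brains fewer cells of a type and less RNA per cell cannot be told apart. In PBS brains 30 of the 39 genes had a mean below the array median, and at such levels background left in the signal makes a fold look smaller than it is.

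All 7 chromosome structure genes were higher, with a median of 1.89 and a wide range. Top2a, which untangles DNA for chromosome segregation, read 9.61, 9.76, 9.32, 9.60 and 10.23 in the BAL17 brains and 4.85, 5.74, 5.31, 5.30 and 5.47 in the PBS brains. The difference was 4.37 ± 0.51, or 20.7-fold (adjusted p = 1.35e-06). Mki67, the antigen used to score cycling cells, read 8.85, 8.74, 8.96, 8.92 and 9.43 against 5.64, 5.83, 5.64, 5.52 and 5.43 (3.37 ± 0.35). Every BAL17 brain was thus far above the PBS range for both. Ncapg, a subunit of condensin I, read 8.08, 8.59, 8.01, 8.15 and 8.79 against 5.53, 5.41, 5.15, 5.34 and 5.20 (3.0 ± 0.31). The other condensin genes differed less, with Smc4 at 1.89 ± 0.18, Ncaph at 1.87 ± 0.17 and Ncapd2 at 0.82 ± 0.12. Smc2 read 8.24, 8.12, 8.23, 8.04 and 8.77 against 7.36, 7.15, 7.0, 6.76 and 6.71 (1.29 ± 0.17).

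All 5 checkpoint genes were higher, with a median of 3.01. Bub1 read 7.87, 8.07, 7.75, 7.76 and 8.56 in BAL17 brains and 4.06, 4.70, 4.40, 3.90 and 4.24 in PBS brains (3.74 ± 0.45). Knl1, the kinetochore scaffold that recruits Bub1, read 8.70, 8.59, 8.45, 8.53 and 9.01 against 4.36, 5.77, 4.78, 4.62 and 5.11 (3.73 ± 0.40). Bub1b, which encodes the checkpoint protein BubR1, read 8.17, 8.33, 8.10, 8.13 and 8.82 against 5.15, 5.18, 5.32, 5.65 and 5.19 (3.01 ± 0.29). BAL17 replicate 5 was the highest brain in all of these. The kinase gene Ttk differed by 2.13 ± 0.22. Mad2l1, the inhibitor that binds Cdc20, read 9.94, 10.24, 9.81, 10.06 and 10.45 in the BAL17 brains against 8.77, 8.97, 8.79, 8.25 and 8.85, the smallest difference of the checkpoint genes (1.37 ± 0.21).

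Kinetochore genes differed by 1.19 to 2.11. Cenpe read 6.86, 6.96, 7.64, 7.19 and 7.58 against 4.98, 4.74, 5.07, 5.62 and 5.65 (2.03 ± 0.21), and Ndc80 read 7.65, 8.0, 7.43, 7.80 and 8.13 against 6.41, 5.66, 5.68, 6.35 and 5.78 (1.82 ± 0.18). Cenpf, Nuf2 and Cenpa differed by 2.11 ± 0.26, 1.42 ± 0.17 and 1.19 ± 0.16. Both genes of the chromosomal passenger complex, which corrects faulty attachments, were higher. Birc5 read 7.54, 8.35, 7.63, 7.73 and 8.21 against 5.87, 5.87, 5.79, 6.10 and 6.18 (1.93 ± 0.20). Aurkb, its kinase, read 7.76, 7.90, 7.48, 7.77 and 8.04 against 6.01, 6.06, 6.35, 6.35 and 5.87 (1.66 ± 0.16).

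Spindle genes differed by 1.45 to 2.77. Kif11, the motor that pushes spindle poles apart, read 8.06, 8.28, 8.30, 8.24 and 9.0 against 5.41, 5.45, 5.64, 5.49 and 6.04 (2.77 ± 0.27). Kif2c, a microtubule depolymerase, read 6.57, 6.70, 6.15, 6.49 and 6.96 against 5.16, 5.01, 5.15, 5.18 and 5.09 (1.45 ± 0.16). The PBS values of Kif2c were the tightest of the genes given by array. Nusap1, Tpx2 and Dlgap5, which bind and organise spindle microtubules, differed by 1.99 ± 0.26, 1.77 ± 0.19 and 1.76 ± 0.22. Among genes of the central spindle and of cytokinesis, Kif23 differed by 1.74 ± 0.20, Ect2 by 1.53 ± 0.19 and Kif20a by 0.74 ± 0.11. Prc1, which bundles the central spindle, read 6.42, 6.82, 6.47, 6.70 and 7.0 against 4.75, 5.26, 4.92, 5.44 and 4.84 (1.63 ± 0.21).

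Anln was the single gene not called (0.03 ± 0.15, adjusted p = 0.884). It encodes anillin, a scaffold of the contractile ring that is also known from myelin. PBS brains already read 8.88, 9.18, 8.76, 8.44 and 8.90, close to the 9.36 ± 0.10 of BAL17 cells, and the BAL17 brains read 8.77, 9.18, 8.97, 8.48 and 8.92. The groups overlapped entirely. In the same brains 3 of 4 oligodendrocyte markers were lower than in PBS brains at day 21 and 4 of 4 at day 28, where Anln had -0.35 ± 0.15 (adjusted p = 0.0973). Their part in the Anln level was not tested.

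All 8 cyclin, Cdk and entry kinase genes were higher, with a median of 1.17 and a wide range. Cks1b, a small Cdk-binding subunit, read 9.62, 9.72, 9.44, 9.39 and 9.90 in BAL17 brains against 6.94, 7.10, 7.14, 6.78 and 7.15 in PBS brains (2.59 ± 0.23), and the cyclin gene Ccna2 differed by 2.47 ± 0.24. Cks2 read 7.51, 7.94, 7.99, 7.56 and 8.11 against 6.25, 6.48, 6.04, 5.28 and 5.52 (1.91 ± 0.22). Plk1 read 6.86, 6.84, 6.80, 6.96 and 7.14 against 5.74, 5.11, 5.31, 5.97 and 4.96 (1.5 ± 0.20). All of these were above a doubling. Cdk1 itself read 6.73, 6.77, 6.64, 6.46 and 6.93 against 5.90, 5.76, 5.99, 5.95 and 5.68, a difference of 0.85 ± 0.14. Aurka read 6.93, 7.12, 7.07, 7.05 and 7.42 against 6.40, 6.15, 6.72, 6.53 and 6.64 (0.63 ± 0.12), the smallest difference that was called. Melk (0.69 ± 0.16) and Ccnb2 (0.65 ± 0.15) were close to it. Of the genes by which mitosis ends, Cdc20, the activator of the APC/C, read 7.07, 7.13, 7.05, 7.08 and 7.51 against 6.47, 6.01, 6.83, 6.51 and 6.46 (0.71 ± 0.14). Ube2c, its ubiquitin-conjugating enzyme, read 7.18, 7.56, 7.23, 7.5 and 7.84 against 6.13, 5.56, 5.86, 6.12 and 6.25 (1.48 ± 0.18).

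Outside the 40 genes, 62 of 90 further mitosis genes were higher in day 21 BAL17 brains and 1 was lower (Ckap5, -0.23 ± 0.08), with a median of 0.64. Kif20b (2.63 ± 0.31), Hmmr (2.31 ± 0.28) and E2f8 (2.08 ± 0.23) led them. Of the 7 transcription factors of cycling genes on that list 4 were higher. They were E2f8, Foxm1 (1.37 ± 0.17), E2f7 (0.65 ± 0.13) and Mybl2 (0.58 ± 0.10), the last 3 named after their values were seen. Of 22 replication genes 21 were higher, with a median of 0.85. Cell type markers moved as well: 8 of 9 B lineage genes were higher, as were 2 of 6 T cell genes (Cd2 and Cd3e) and 2 of 6 macrophage genes (Lyz2 and Cybb). Of 6 neural progenitor and neuroblast genes 2 were lower (Sox2 at -0.40 ± 0.10 and Dcx at -0.54 ± 0.10). So were 3 of 4 oligodendrocyte precursor genes, and none of either list was higher. These lists do not measure division of brain cells. The B lineage mean was 6.15 ± 0.14 (SD) in PBS brains and 7.69 ± 0.20 in BAL17 brains. Markers of resident cells were lower, with 5 of 5 microglia, 4 of 5 astrocyte, 4 of 6 neuron and 3 of 5 endothelial genes. The share of all genes called lower is not given here. With each array left out in turn, 4831 to 6508 of 19938 genes were called in either direction. The part of these cell types in the mitosis values was not tested.

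**Figure D2:**
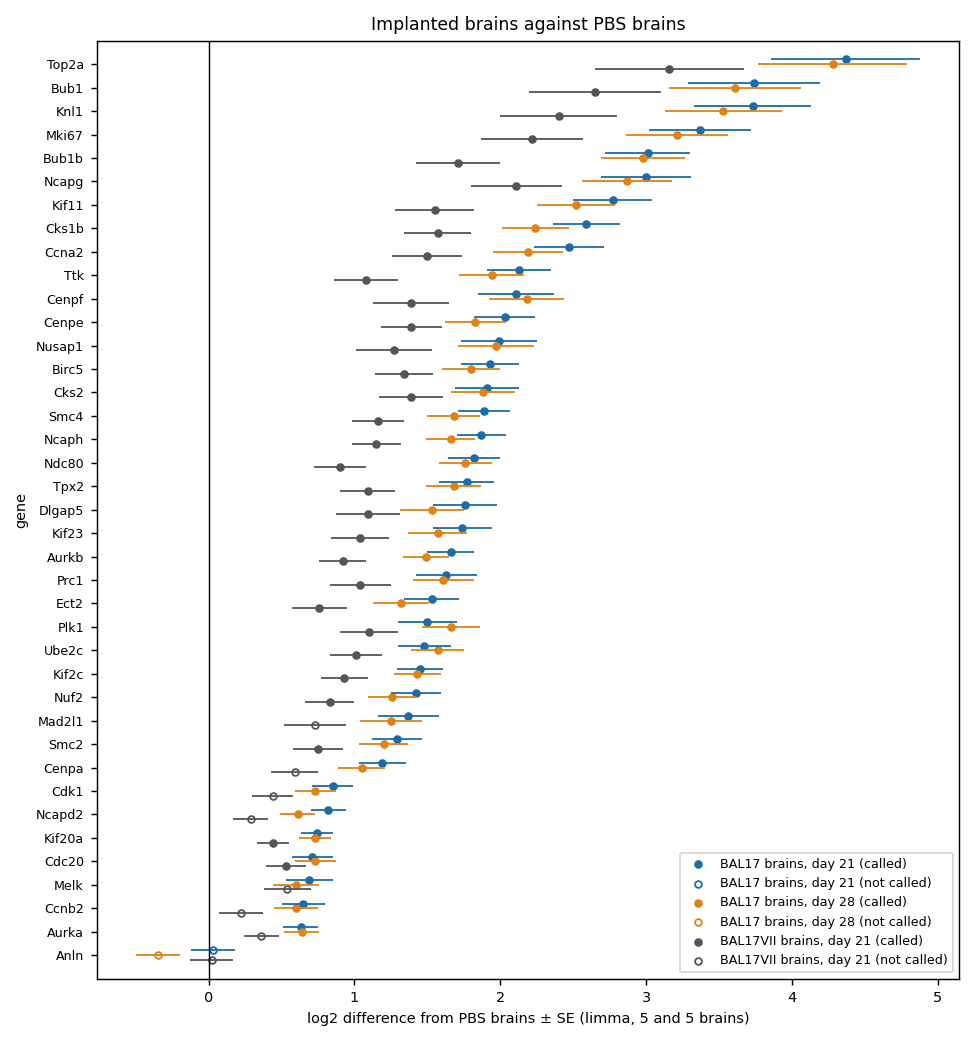
Log2 difference from PBS brains with limma's SE for each of the 39 genes (rows, ordered by the BAL17 day 21 value), for BAL17 brains at day 21 and day 28 and BAL17VII brains at day 21, 5 brains each against 5. Filled points were called. Differences run from -0.35 for Anln at day 28 to 4.37 for Top2a at day 21, and the BAL17VII points lie at or to the left of the BAL17 day 21 points.

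BAL17 brains at day 28, the day of the controls, had nearly the same picture. The same 38 genes were higher than in PBS brains, where 6.56% of all genes were, and in 37 of them, all but Melk, the groups did not overlap, where 5.66% of all genes did so. The median was 1.66 over the 39 genes and -0.02 over all genes. Top2a read 9.90, 9.48, 9.63, 9.61 and 9.47 (4.28 ± 0.51), Bub1 read 7.98, 7.72, 7.79, 7.86 and 7.99 (3.61 ± 0.45) and Knl1 read 8.47, 8.47, 8.41, 8.45 and 8.49 (3.53 ± 0.40). The day 28 brains lay closer together than the day 21 brains, with an SD of the mitosis mean of 0.05 against 0.19. Of the further mitosis genes 59 of 90 were higher and of the replication genes 20 of 22. In the same brains 7 of 9 B lineage and 3 of 6 macrophage genes (Lyz2, Cybb and Ms4a7) were higher. Of 6 T cell genes 1 was higher (Cd2) and 1 lower (Cd4). Lower genes included 4 of 6 neural progenitor and neuroblast, 2 of 4 oligodendrocyte precursor, 4 of 4 oligodendrocyte, 3 of 5 astrocyte, 3 of 6 neuron and 1 of 5 endothelial genes, and none of 5 microglia genes was called. Their part in the mitosis values was not tested. The share of all genes called lower is not given here. With each array left out in turn, 2497 to 3605 of 19938 genes were called in either direction.

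The other fixed genes at day 28 overlapped with their day 21 values in every case. Mki67 read 8.81, 8.54, 8.85, 9.0 and 8.89 (3.21 ± 0.35), Ncapg read 8.37, 8.07, 8.23, 8.12 and 8.18 (2.87 ± 0.31) and Smc2 read 8.32, 8.19, 8.03, 8.25 and 8.19 (1.2 ± 0.17). All of these lay above the PBS brains. In the checkpoint, Bub1b read 8.20, 8.39, 8.14, 8.34 and 8.31 (2.98 ± 0.29) and Mad2l1 ran from 9.84 to 10.31 with a median of 9.92 (1.25 ± 0.21). At the kinetochore, Ndc80 read 7.73, 7.67, 7.88, 7.71 and 7.69 (1.76 ± 0.18) and Cenpe read 7.24, 6.84, 6.99, 7.15 and 7.03 (1.83 ± 0.21). Again every day 28 brain was above every PBS brain. The passenger genes Aurkb and Birc5 read 7.53, 7.63, 7.70, 7.45 and 7.79 (1.49 ± 0.16) and 7.86, 7.96, 7.63, 7.67 and 7.70 (1.80 ± 0.20). Kif11 read 8.41, 8.08, 8.15, 8.01 and 7.97 (2.52 ± 0.27), Kif2c read 6.60, 6.35, 6.54, 6.65 and 6.58 (1.43 ± 0.16) and Prc1 read 6.66, 6.60, 6.65, 6.69 and 6.66 (1.61 ± 0.21). Of these Prc1 had the narrowest range among the 5 brains. Among the entry genes, Cks1b read 9.42, 9.33, 9.22, 9.09 and 9.28 (2.24 ± 0.23) and Cks2 read 7.93, 7.51, 7.81, 7.87 and 7.85 (1.88 ± 0.22). Cdk1 read 6.68, 6.65, 6.72, 6.45 and 6.43 (0.73 ± 0.14), Plk1 read 7.0, 7.17, 6.93, 7.23 and 7.05 (1.66 ± 0.20) and Aurka read 7.23, 7.05, 6.97, 7.18 and 7.20 (0.64 ± 0.12). The day 28 brains stayed clear of the PBS range in these as well. The APC/C genes Cdc20 and Ube2c read 7.21, 7.27, 7.09, 7.31 and 7.07 (0.73 ± 0.14) and 7.66, 7.49, 7.66, 7.41 and 7.55 (1.57 ± 0.18). Anln read 8.19, 8.65, 8.35, 8.62 and 8.58 and overlapped with PBS.

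Between day 21 and day 28 no difference was called in any of the 39 genes, where 0.612% of all genes were called in either direction by limma with Benjamini-Hochberg adjustment. At an unadjusted p under 0.05, 1 of the 39 was lower, where 9.9% of all genes passed. The differences ran from -0.39 (Anln) to 0.16 (Plk1) with a median of -0.13, and 34 of 39 were negative. Without BAL17 day 21 replicate 5, the highest of those brains, the median was -0.05. Their 95% confidence intervals reached at most from -1.14 to 0.97, both for Top2a, so a change of less than about a doubling in that gene is not excluded by these 5 and 5 brains. With its probe sets averaged the difference of Top2a went from -0.09 to 0.08. B lineage markers had no call between the days either.

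BAL17VII brains at day 21 had more mitosis RNA than PBS brains in 31 of the 39 genes, where 2.05% of all genes were higher. The median was 1.08 over the 39 genes and -0.01 over all genes. In 8 genes (Cks1b, Cks2, Birc5, Cenpe, Ncapg, Ncaph, Smc4 and Kif2c) no BAL17VII brain overlapped the PBS range, where 1.42% of all genes had this. Top2a read 5.23, 9.68, 9.31, 8.85 and 9.41 (3.16 ± 0.51), Bub1 read 4.07, 7.90, 7.70, 7.17 and 7.73 (2.65 ± 0.45) and Mki67 read 5.59, 8.73, 8.24, 8.24 and 8.35 (2.22 ± 0.35). Replicate 1, the first value of each, lay in the PBS range, and the other brains lay well above it. Cks1b read 7.40, 9.53, 8.75, 8.47 and 8.82, so that replicate 1 was just above the highest PBS brain at 7.15. Without replicate 1 the count was 37 of 39, the median 1.33 and Top2a 3.98. Without replicate 2 the count was 27.

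Replicate 1 was the lowest BAL17VII brain in most of the other fixed genes. Bub1b (1.71 ± 0.29) and Knl1 (2.40 ± 0.40) had that brain inside the PBS range and the others above it, with the arrays given below. Ncapg read 5.58, 8.26, 7.96, 7.46 and 7.93 (2.11 ± 0.31), Smc2 read 6.99, 8.02, 7.91, 7.79 and 7.99 (0.75 ± 0.17) and Mad2l1 read 8.34, 9.94, 9.84, 9.37 and 9.77. For Ncapg replicate 1 was just above the highest PBS brain, and for Smc2 and Mad2l1 it was within the PBS range. Ndc80 read 6.12, 7.25, 7.03, 6.91 and 7.07 (0.90 ± 0.18) and Cenpe read 5.73, 7.01, 6.72, 6.51 and 7.06 (1.39 ± 0.21). Aurkb read 6.20, 7.35, 7.29, 7.08 and 7.29 (0.92 ± 0.16) and Birc5 read 6.44, 7.98, 7.64, 7.09 and 7.36 (1.34 ± 0.20). Replicate 1 was inside the PBS range for Ndc80 and Aurkb and above it for Cenpe and Birc5. Kif2c read 5.47, 6.60, 6.25, 5.68 and 6.25 (0.93 ± 0.16) and Prc1 read 4.99, 6.59, 6.60, 5.91 and 6.35 (1.04 ± 0.21). Cks2 read 6.64, 7.98, 7.53, 6.77 and 7.59 (1.39 ± 0.22), with replicates 1 and 4 close to each other and below the rest. Plk1 read 5.53, 6.88, 6.74, 6.62 and 6.85 (1.10 ± 0.20), Cdk1 read 5.68, 6.62, 6.69, 6.15 and 6.34 and Aurka read 6.73, 7.08, 7.12, 6.51 and 6.78. For Plk1 and Cdk1 replicate 1 was alone in the PBS range, while for Aurka replicate 4 was. The APC/C genes Cdc20 and Ube2c read 6.49, 7.24, 6.93, 7.18 and 7.06 (0.53 ± 0.14) and 6.10, 7.46, 7.16, 6.95 and 7.30 (1.01 ± 0.18). Anln read 9.26, 8.82, 8.91, 8.47 and 8.79, with replicate 1 the highest.

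The 8 genes not called against PBS were Mad2l1 (0.73 ± 0.21, adjusted p = 0.0714), Cenpa (0.59 ± 0.16, adjusted p = 0.0508), Melk (0.54 ± 0.16), Cdk1 (0.44 ± 0.14), Aurka (0.36 ± 0.12), Ncapd2 (0.29 ± 0.12), Ccnb2 (0.22 ± 0.15) and Anln (0.02 ± 0.15). All but Anln and Aurka passed without replicate 1. Of the further mitosis genes 28 of 90 were higher and of the replication genes 12 of 22. In the same brains 5 of 9 B lineage, 2 of 6 macrophage (Lyz2 and Cybb) and 1 of 6 T cell genes (Cd2) were higher. Of 5 endothelial genes 1 was lower. Cybb and Cd2 were also higher in cultured BAL17VII cells than in BAL17 cells. The part of these cell types in the mitosis values was not tested. Brains of both groups spread unequally, with SDs of the mean over the 39 genes of 0.64 for BAL17VII and 0.02 for PBS, while the fit gives them a common error. A fit on these groups' arrays alone called 21 of the 39.

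**Figure D3:**
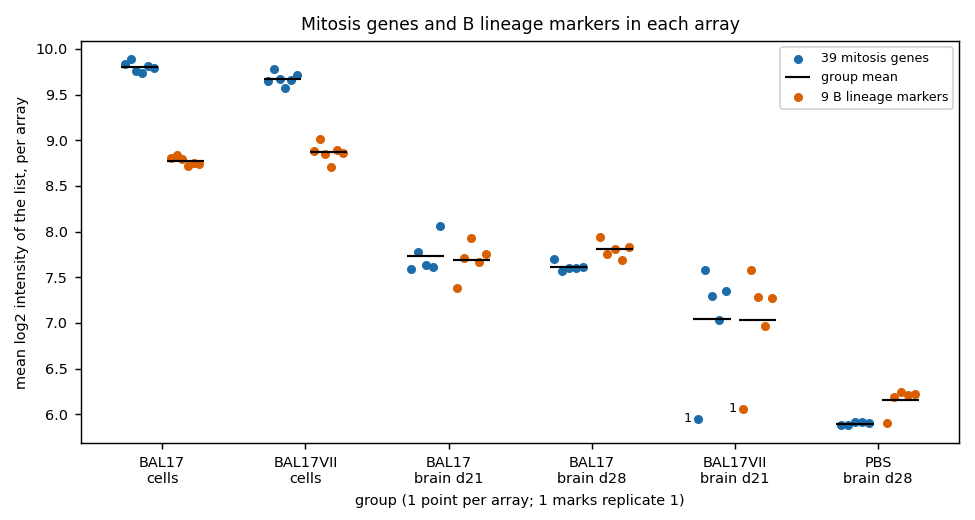
Mean log2 intensity per array (points) of the 39 mitosis genes and of 9 B lineage markers, by group, with the group mean as a line. Replicate 1 of the BAL17VII brains, marked 1, lies at 5.95 for mitosis genes and 6.06 for B lineage markers, near the PBS brains. The levels of the panels come from different probe sets and are not to be set against each other.

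The lines were compared with each other in the brain at day 21. In BAL17VII brains all 39 differences were negative, and 22 genes were lower and none higher, where 4.55% of all genes were lower. The median was -0.66 over the 39 genes and -0.00 over all genes. In 12 genes (Ccna2, Bub1b, Ttk, Knl1, Ndc80, Aurkb, Mki67, Ncapd2, Smc2, Smc4, Kif11 and Ect2) no BAL17VII brain reached the lowest BAL17 brain, where 2.89% of all genes had this. Of the checkpoint genes 4 of 5 were lower, with Knl1 at -1.33 ± 0.40 (adjusted p = 0.0306), Bub1b at -1.30 ± 0.29 (adjusted p = 0.00489) and Ttk at -1.05 ± 0.22 (adjusted p = 0.00336). Bub1b read 5.27, 7.83, 7.38, 7.05 and 7.53 in the BAL17VII brains, all under the lowest BAL17 brain at 8.10. Knl1 read 4.90, 8.32, 7.93, 7.48 and 8.01, all under 8.45. Without BAL17VII replicate 1 its difference was -0.72, and it was not called without BAL17 replicate 5. The other 19 genes called lower had differences from -1.22 (Kif11) to -0.52 (Kif2c and Ncapd2). Kif11 read 5.64, 7.81, 7.55, 7.14 and 7.65, against 8.06 in the lowest BAL17 brain.

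Of the 17 genes without a call, Top2a had -1.21 ± 0.51 (adjusted p = 0.119), Bub1 -1.09 ± 0.45 (adjusted p = 0.11) and Ncapg -0.88 ± 0.31 (adjusted p = 0.0589). The smallest differences were those of Anln (-0.01 ± 0.15), Melk (-0.16 ± 0.16), Cdc20 (-0.19 ± 0.14) and Aurka (-0.27 ± 0.12). Melk was at 0.00 without replicate 1 of the BAL17VII brains, so it was not negative there. Without replicate 1 of the BAL17VII brains 14 of the 22 genes were still called and the median was -0.39, with Bub1b at -0.86, Kif11 at -0.84, Ncapg at -0.42, Top2a at -0.39 and Bub1 at -0.38. Of the called genes, Ccna2 (-0.61), Mki67 (-0.59), Tpx2 (-0.44), Cenpe (-0.42), Kif23 (-0.42), Mad2l1 (-0.37), Dlgap5 (-0.36) and Smc2 (-0.35) also shrank by over 1.5 times. Without BAL17 replicate 5, the highest BAL17 brain, 11 of the 22 were still called and the median was -0.58. The 11 were Ccna2, Cks1b, Bub1b, Ttk, Ndc80, Aurkb, Ncapd2, Ncaph, Smc4, Kif11 and Ect2. Without BAL17VII replicate 2 the count was 34, and with only these groups in the fit it was 9.

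Other genes moved in the same comparison. Of the further mitosis genes 34 were lower, led by Kif18a (-1.02 ± 0.21) and Cenpn (-0.96 ± 0.15), while Kif20b had -0.88 ± 0.31 (adjusted p = 0.0647), and 2 were higher (Mis12 at 0.31 ± 0.10 and Ska2 at 0.33 ± 0.11). Of 22 replication genes 18 were lower, with a median of -0.43. The B lineage mean was 7.03 ± 0.58 in BAL17VII brains and 7.69 ± 0.20 in BAL17 brains, and 3 of 9 markers were lower. Markers of resident cells were higher in BAL17VII brains, with 4 of 5 microglia, 4 of 5 astrocyte, 3 of 6 neuron, 3 of 4 oligodendrocyte and 3 of 4 oligodendrocyte precursor genes. The share of all genes called higher is not given here. With each array left out in turn, 1483 to 3767 of 19938 genes were called in either direction. The part of the cell make-up in the mitosis differences was not tested. The mitosis mean minus the B lineage mean was 0.01 ± 0.08 (SD) in BAL17VII brains, 0.05 ± 0.24 in BAL17 brains at day 21, -0.19 ± 0.06 at day 28 and -0.25 ± 0.13 in PBS brains. It was 1.03 ± 0.03 in BAL17 cells and 0.81 ± 0.05 in BAL17VII cells. Its level depends on the probe sets of both lists, so its sign carries no meaning. In brains it also holds signal of the brain itself, and the part of the amount of lymphoma in it was not tested. Lines and brains may have been normalized separately. The mitosis minus B lineage values of cells and of brains are therefore not to be set against each other, and none is a level per lymphoma cell.

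A difference of differences asked directly whether the line difference in the brain departs from that in culture, in a fit of all 32 arrays. It was more negative in the brain in 13 of the 39 genes and more positive in none, where 7.13% of all genes were more negative. The median was -0.60 over the 39 genes and 0.01 over all genes. The culture difference enters this value with its sign turned, so the 5 genes that were higher in BAL17VII cells in culture start from a negative value. These were Cenpa (-0.89 ± 0.19), Kif23 (-0.93 ± 0.23), Cenpe (-0.85 ± 0.24), Aurka (-0.68 ± 0.17) and Kif20a (-0.66 ± 0.15). Cenpa read 9.73 to 9.95 (median 9.90) in BAL17 cells and 9.92 to 10.40 (median 10.15) in BAL17VII cells. In the brains it read 7.22, 7.52, 7.14, 7.38 and 7.60 with BAL17 and 6.08, 7.40, 6.89, 6.60 and 6.88 with BAL17VII. Cenpa was thus higher in BAL17VII in culture and lower in the brain, with overlap between the groups in both places. The B lineage mean was 8.77 in BAL17 cells and 8.87 in BAL17VII cells. In the day 21 brains it was 7.69 with BAL17 and 7.03 with BAL17VII. Brain values mix RNA of lymphoma and brain, and the part of the amount of lymphoma in the difference of differences was not tested.

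The other 8 genes were Bub1b (-1.09 ± 0.33), Ttk (-1.03 ± 0.26), Kif11 (-0.88 ± 0.31), Cenpf (-0.87 ± 0.30), Tpx2 (-0.70 ± 0.22), Ect2 (-0.65 ± 0.22), Kif2c (-0.60 ± 0.19) and Ncapd2 (-0.44 ± 0.15). Without BAL17VII brain replicate 1, Bub1b was at -0.65, Kif11 and Cenpf at -0.50, Tpx2 at -0.46 and Ect2 at -0.43, and the median over the 39 genes was -0.30. Genes whose difference was near the same in both places included Smc2 (0.04 ± 0.19), Nuf2 (-0.05 ± 0.20) and Birc5 (-0.14 ± 0.23), with SEs that do not exclude a modest change. Of 22 replication genes 5 were more positive and none more negative, namely Rrm2 (0.78 ± 0.22), Cdc6 (0.61 ± 0.17), Rrm1 (0.50 ± 0.13), Lig1 (0.44 ± 0.12) and Mcm4 (0.41 ± 0.13), named after their values were seen. Of the further mitosis genes 5 were more positive and 10 more negative, led by Cdkn3 (-1.01 ± 0.16) and Cdc25c (-0.85 ± 0.18). The share of all genes more positive is not given here, so the counts of more positive genes cannot be set against it. With each array left out in turn, 2475 to 3737 of 19938 genes were called in either direction. Without BAL17VII brain replicate 1 the count among the 39 was 7, without BAL17 brain replicate 5 it was 6, without BAL17VII cell replicate 2 it was 8 and without BAL17VII brain replicate 2 it was 23. Aurka, Ttk, Cenpe, Cenpa, Kif20a and Kif23 were called both without BAL17VII brain replicate 1 and without BAL17 brain replicate 5. The labels number cultured cells and brains as separate series, so that series and place cannot be told apart.

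**Figure D4:**
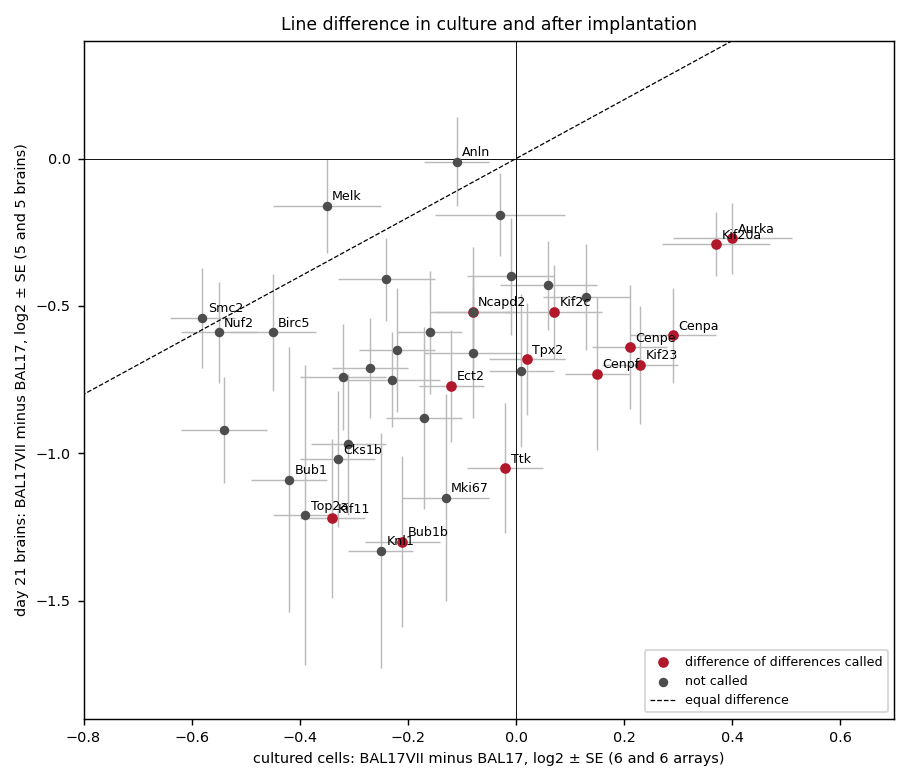
BAL17VII minus BAL17, log2 with limma's SE, for each of the 39 genes in culture (x axis, 6 and 6 arrays) and in day 21 brains (y axis, 5 and 5 brains), with a dashed line where both are equal. Red points are the 13 genes whose difference of differences was called, and all points lie below 0 on the y axis, from -0.01 for Anln to -1.33 for Knl1.

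The level reached in a brain was also set against the level of the same gene in the cultured line, as the excess over the PBS mean in linear intensity divided by the excess of the line. Lines and brains may have been normalized separately, so the shares and their order over the genes only describe the deposited values. In BAL17 brains at day 21 the median over the 39 genes was 15%. The highest were Cks1b at 42.7% ± 7.35 (SD, n = 5 brains), Mad2l1 at 38.0% ± 11.0, Smc4 at 30.6% ± 6.07, Cks2 at 29.9% ± 7.54, Top2a at 28.0% ± 7.24, Knl1 at 27.3% ± 4.77 and Ncapg at 25.8% ± 7.30. Among the lowest were Kif2c at 10.2% ± 3.20, Prc1 at 10.1% ± 2.51 and Cenpa at 10.8% ± 2.58, with Ccnb2 and Kif20a just under Prc1. The 5 brains of Cks1b ran from 35.1% to 53.3% and those of Prc1 from 7.5% to 13.6%, without overlap. Cdk1 (14.2% ± 3.79), Plk1 (14.7% ± 2.26) and Mki67 (20.6% ± 4.58) lay between. Anln gives no readable share, since its PBS level is close to that of the line. At day 28 the median was 14.4%, with Mad2l1 (32.9% ± 8.18), Cks1b (31.6% ± 3.41) and Cks2 (28.7% ± 4.31) highest. In BAL17VII brains it was 8.71%, with Cks1b (24.9% ± 17.2) and Top2a (22.0% ± 13.7) highest and the brains far apart. This median includes replicate 1, and the lowest brain was at 3.16% for Cks1b and -0.158% for Top2a.

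**Figure D5:**
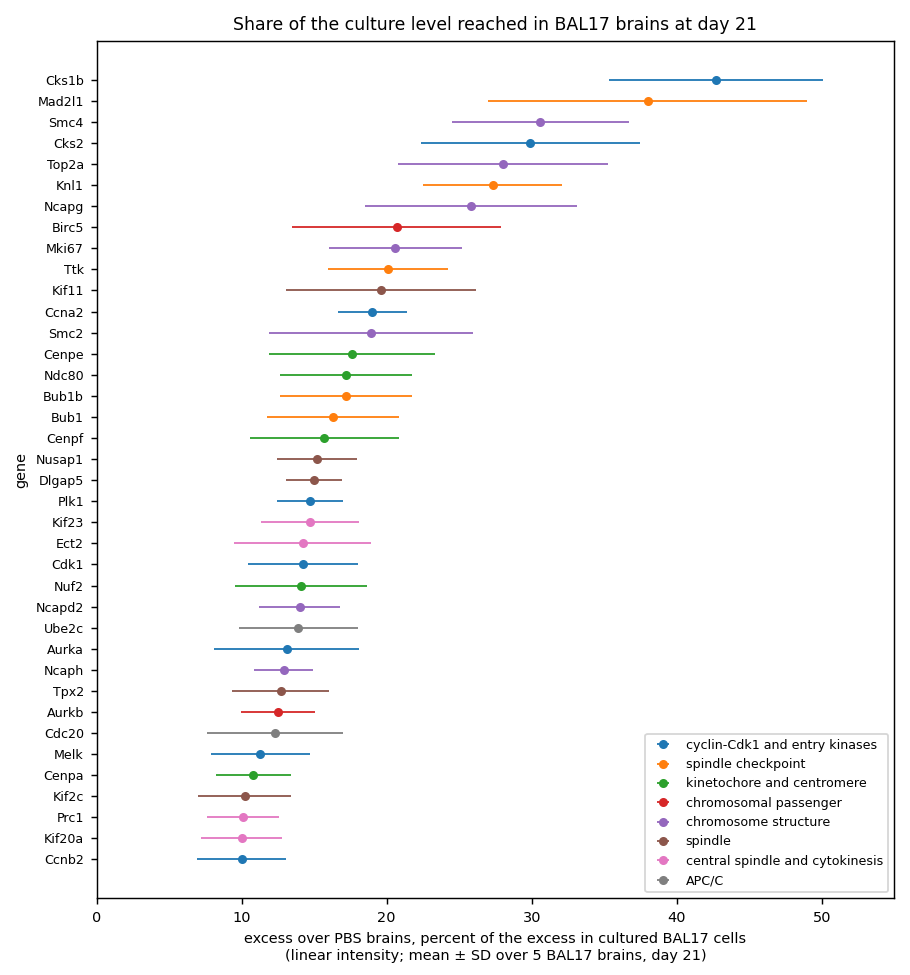
Excess over PBS brains in day 21 BAL17 brains as a percent of the excess in cultured BAL17 cells, per gene, as the mean with SD over 5 brains on linear intensities, coloured by role. Anln is left out because its share cannot be read, and the values fall from 42.7% for Cks1b to about 10% for the genes at the bottom.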

How the data were processed

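Total RNA of 12 arrays of cultured cells and 20 arrays of brain was measured on Affymetrix mouse arrays. The deposited intensity values were computed by the authors with Expression Console and RMA, both named without a version in the submitters' processing notes. RMA is a method that subtracts background, brings arrays to one distribution and combines the probes of a set. The deposited intensity ran from 2.72 to 17825, a linear scale and not the log2 scale the plan assumed, so log2 was taken first. Whether lines and brains were normalized together is not given in the sources used here. Array medians lay between 81.7 and 93.0. RMA gives no detection call, and the number of arrays limits the precision.

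Of 35556 probe sets 21789 had 1 symbol in the probe table, 1621 several and 12146 none, and 21698 identifiers matched a gene table of GRCm38.p6, used for names. They stand for 19938 genes. No filter on intensity was applied, so that no gene entered through the group where it is high. Per comparison, limma 3.58.1 in R 4.3.3 fitted group means with empirical Bayes moderation, two-sided. Cell arrays were fitted together (12), brain arrays together (20), and the difference of differences used all 32. Tables and figures used Python 3.11.15, pandas 2.3.3 and matplotlib 3.10.9, and the fit was tested on simulated data.

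The 40 genes, the further lists and the markers were chosen with earlier results of these data known. Any of the 40 may be named, values per array are given for fixed genes and for the largest and smallest difference of a comparison, and of the further mitosis genes the 3 largest differences. Other named genes were picked after their values were seen. Replicate numbers were not taken to pair the samples. Deviations of same-numbered arrays correlated between -0.32 and 0.48 over 36 pairs and over 0.1 in 12, among them all brain pairs of replicate 4. These values do not exclude an effect tied to the replicate number, so a fit with it as a block is among the alternatives. Alternatives were quantile normalization, median centring, an intensity filter, other probe set rules, trended or robust moderation, array weights, other arrays in the fit, the replicate number as a block, a minimum change of a doubling, and leaving out each array.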

Additional observations from a re-analysis of the deposited data

Results flagged for a closer look

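Within single groups 17 of 144 examined sets of values (11.806%) had a highest or lowest array far from the others by Dixon's test. Chance gives this in about 1 of 20 independent sets. The sets here are genes and their mean on the same arrays, so they are not independent and the share does not measure an excess over chance. Of the 17 flagged sets, 7 were replicate 1 of the BAL17VII brains on the low side: Plk1 at 5.53, Bub1 at 4.07, Knl1 at 4.90, Aurkb at 6.20, Top2a at 5.23, Mki67 at 5.59 and Smc2 at 6.99. In day 21 BAL17 brains replicate 5 was high for Smc2 (8.77), Kif11 (9.0) and Cdc20 (7.51). At day 28 replicate 2 was low for Cks2 (7.51), replicate 3 high for Ndc80 (7.88) and replicate 1 high in the mean of the 39 genes (7.70). In PBS brains replicate 4 was low for Mad2l1 (8.25). Among BAL17VII cells replicate 2 was high for Cdk1 (8.71) and Top2a (11.25), and replicate 4 was low for Aurkb (9.76).

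The line difference in the brain departed from that in culture, by the test of the difference itself, in 13 genes, of which 7 were called without BAL17VII brain replicate 1 and 6 without BAL17 brain replicate 5. The values were -1.09 for Bub1b, -1.03 for Ttk, -0.93 for Kif23, -0.89 for Cenpa, -0.88 for Kif11, -0.87 for Cenpf, -0.85 for Cenpe, -0.70 for Tpx2, -0.68 for Aurka, -0.66 for Kif20a, -0.65 for Ect2, -0.60 for Kif2c and -0.44 for Ncapd2. Without BAL17VII brain replicate 1 the values of Bub1b, Kif11, Cenpf, Tpx2 and Ect2 were -0.65, -0.50, -0.50, -0.46 and -0.43. The part of the amount of lymphoma in the brains in these values was not tested.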

How the results depend on the processing

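Over the alternatives that keep all arrays, the number of the 39 genes called against PBS ran from 31 to 38 for BAL17 brains at day 21, from 31 to 39 at day 28 (Anln being called lower with all 32 arrays in the fit) and from 21 to 35 for BAL17VII brains, and between the days it stayed 0. For the cultured lines 6 of 39 were called with all 32 arrays in the fit and 0 with a minimum change of a doubling, against 19. For BAL17VII against BAL17 brains 9 were called with only these groups in the fit and 6 with that minimum, against 22. For the difference of differences 7 and 2 were called, against 13. Shares of all genes called are given for the main fits only, so these counts have no such share beside them. The median at day 28 against PBS was 1.60 with quantile normalization, against 1.66. The cause was not tested. Leaving out each array gave 15 to 19 calls and medians of -0.15 to -0.11 for the cultured lines, 38 in every case and 1.67 to 1.81 for BAL17 at day 21, 27 to 37 and 0.95 to 1.33 for BAL17VII, and 37 to 39 and 1.61 to 1.68 for day 28, each against PBS. It gave 11 to 34 and -0.80 to -0.39 between the lines in the brain, 0 and -0.17 to -0.05 between the days, and 6 to 23 and -0.72 to -0.30 for the difference of differences. Calls over all genes moved too, from 229 to 1117 for BAL17VII against PBS and from 1483 to 3767 between the lines in the brain. With the replicate number as a block, which was not taken to pair these samples, the counts were 15, 38, 32, 38, 26, 0 and 14 in the order of cultured lines, day 21, BAL17VII and day 28 against PBS, lines in the brain, days, and difference of differences. An array's deviations correlated best with its own number in 21 of 72 cases, where equally likely numbers would give 14. Of single gene values under an alternative, 5830 stayed on their side of the threshold, 213 lost the call and 114 gained it. No called value changed sign, but 63 values without a call did. Of these, 3 were over 0.1 in size: the difference of differences without BAL17VII brain replicate 1 went from -0.67 to 0.04 for Bub1 and from -0.14 to 0.08 for Birc5, and day 28 minus day 21 without BAL17 day 21 replicate 5 went from -0.13 to 0.01 for Bub1.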
